A study of Homo sapiens with 12 samples.

Results

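WX-02-43 was set against DMSO to ask what this compound changed, within hours, in new and total RNA of the human prostate cancer line 22Rv1. The comparison rests on 6 of the 12 libraries of the series, the 3 labelled WX-02-43 and the 3 labelled DMSO, and on 18652 coding genes. WX-02-43 was given at 20 µM for 3 h, and DMSO, the solvent control, at 0.1% v/v. WX-02-23, at the same dose and time, serves as a second point of comparison, and PladB (pladienolide B, 10 nM for 3 h) is used only to describe genes. All 4 groups had 3 libraries each. Every group, DMSO included, carried the same edit, C1111S, in the SF3B1 gene, and every group then received 4-thiouridine (100 µM, 1 h). Cells with unedited SF3B1 were not analysed here, so no value below compares the genotypes. The labels give WX-02-43 and WX-02-23 as code-named stereoprobes, and do not say whether the edited line is 1 clone or whether replicates were separate cultures. The p-values thus measure the spread between these samples, which may be technical.

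SF3B1 is a core subunit of SF3b, the part of the U2 snRNP that holds the branch site during splicing, and PladB binds SF3b and blocks it. In SLAM-seq, cells take up 4-thiouridine and build it into RNA in place of uridine. Alkylation with iodoacetamide then makes a labelled position appear as C in place of T. A read with at least 1 such change is called a T>C read and is taken as a read of newly made RNA, while all reads of a gene stand for its total RNA. The number of conversions in a T>C read says how densely that RNA was labelled. It is a separate measure from the share of reads with T>C, which also depends on how much of a gene's RNA was old.

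Reads on coding genes ran from 15469944 to 15890385 in WX-02-43 libraries and from 15245930 to 16779037 in DMSO libraries. T>C reads on coding genes ran from 1416411 to 1456937 in WX-02-43 libraries and from 1369014 to 1648759 in DMSO libraries. All 13 luminal prostate markers checked had reads, among them KRT8, KRT18, HOXB13 and FOXA1, and their summed level was 3253 to 3385 CPM of all coding reads in WX-02-43 libraries, against 3696 to 3904 CPM in DMSO libraries. The 4 endothelial markers (PECAM1, VWF, CDH5, KDR) had 0 reads in all 6 libraries, as had the basal markers KRT5, KRT14 and TP63. All 5 basal markers together summed to 4.23 to 9.19 CPM in WX-02-43 and 3.67 to 6.52 CPM in DMSO libraries. The 6 neuroendocrine markers summed to 34.8 to 45.0 CPM in WX-02-43 and 33.0 to 41.1 CPM in DMSO libraries. For the 6 fibroblast markers the sums were 31.5 to 45.4 CPM and 30.8 to 47.8 CPM. SYP and VIM, of these 2 panels, had at least 10 CPM in all 6 libraries. Of the luminal panel, KLK3 and TMPRSS2 did not reach that level in all 6. The 5 leukocyte markers summed to at most 1.94 CPM in WX-02-43 libraries and 1.77 CPM in DMSO libraries. Unlabelled cells were not analysed here, so the background of T>C reads that owe nothing to labelling is unknown.

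WX-02-43 libraries held more conversions in each T>C read than DMSO libraries, while the groups overlapped in the share of reads that were T>C reads. Conversions per T>C read, summed over coding genes, were 2.408, 2.404 and 2.412 in WX-02-43 replicates 1, 2 and 3, against 1.792, 1.854 and 1.795 in DMSO replicates 1, 2 and 3. WX-02-23 replicates lay between the groups, at 1.987, 1.996 and 1.976. The means were 2.41 ± 0.00385 in WX-02-43 libraries, 1.99 ± 0.00992 in WX-02-23 libraries and 1.81 ± 0.035 in DMSO libraries (SD, n = 3 each). All 3 WX-02-43 libraries were above all 3 DMSO libraries, a difference of 0.594 conversions per read and a ratio of 1.33 (exact two-sided permutation p = 0.1, the smallest that 3 against 3 allows; 0.143 after Benjamini-Hochberg adjustment over 10 library comparisons). All 3 were also above all 3 WX-02-23 libraries, by 0.421 (exact permutation p = 0.1, adjusted 0.143).

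The share of coding reads with T>C was 9.42%, 8.91% and 8.97% in WX-02-43 replicates 1, 2 and 3, against 9.83%, 8.98% and 9.53% in DMSO replicates 1, 2 and 3. These ranges overlapped, and the difference of -0.346 percentage points was smaller than the SD of 0.43 among DMSO libraries (exact permutation p = 0.2, adjusted 0.222). Converted T positions as a percent of those covered, a value which combines both measures, came to 0.913% ± 0.0364 in WX-02-43 and 0.706% ± 0.0244 in DMSO (SD, n = 3 each; exact permutation p = 0.1, adjusted 0.143). The number of T positions that a read covered, which bounds how many conversions it can hold, was 24.0 ± 0.221 in WX-02-43 and 24.3 ± 0.209 in DMSO, with overlapping ranges (exact permutation p = 0.3, adjusted 0.3). WX-02-23 libraries covered 23.6 ± 0.105 T positions per read (SD, n = 3), and all 3 lay below all 3 WX-02-43 libraries (exact permutation p = 0.1, adjusted 0.143). The WX-02-43 mean was 1.02 times that of WX-02-23 in T positions per read and 1.21 times in conversions per T>C read.

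**Figure D1:**
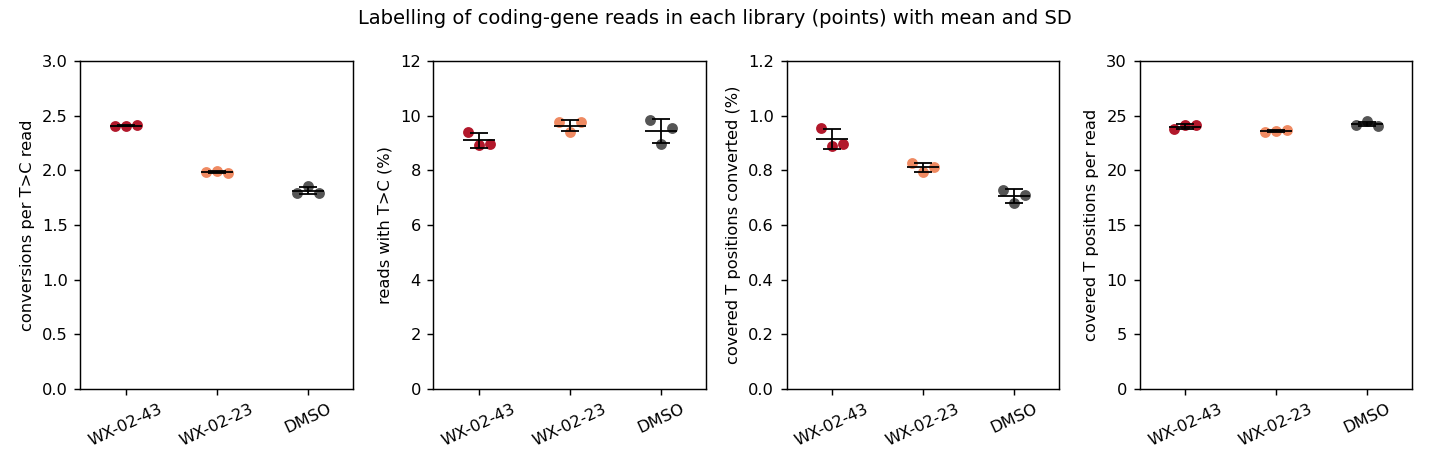
Each point is 1 library, with the mean and SD of the 3 libraries of WX-02-43, WX-02-23 and DMSO; the panels show conversions per T>C read, the percent of coding reads with T>C, the percent of covered T positions converted and the covered T positions per read. Conversions per T>C read separate the groups, at 2.41 in WX-02-43 and 1.81 in DMSO, while the share of reads with T>C overlaps.

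Gene by gene, the higher number of conversions per T>C read was spread over most genes with enough T>C reads to measure it. Of 4643 genes with a mean of at least 50 T>C reads over the 12 libraries, 4091 (88.1%) had a higher mean log2 ratio in WX-02-43 than in DMSO. The median log2 change was 0.40, or 1.32-fold, and the 5th and 95th percentiles were -0.17 and 0.94. In 1575 genes (33.9%) all 3 WX-02-43 libraries were above all 3 DMSO libraries, and in 30 (0.646%) all 3 were below. The median gene stood at 2.37, 2.31 and 2.39 conversions per T>C read in WX-02-43 replicates 1, 2 and 3, against 1.73, 1.76 and 1.74 in DMSO replicates 1, 2 and 3. Among the 154 genes with a mean of at least 1000 T>C reads, a class added after the data were seen, 153 had a positive change, 126 had groups that did not overlap with WX-02-43 higher, and none had groups that did not overlap with WX-02-43 lower.

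How many single genes pass a test depended on how the spread was modelled. With limma on the log2 ratio, 84 of 4643 genes were called at an adjusted p under 0.05 (1.81%), 83 of them higher (1.79%) and 1 lower (0.0215%) in WX-02-43, and 1387 had an unadjusted p under 0.05. That fit set the variance trend on the mean ratio. A trend on the mean number of T>C reads, added after the call counts had been seen, called 517 genes, 516 of them higher, and 80 genes were called by both. edgeR on conversions with T>C reads as offset called 605 genes, 604 of them higher, and limma on the 1426 genes with a mean of at least 200 T>C reads called 579, of which 578 were higher. A fit to the 6 libraries alone called 0 genes, and fits without 1 of the 6 libraries called 0 to 8. In each of these fits at most 1 gene was called lower.

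**Figure D2:**
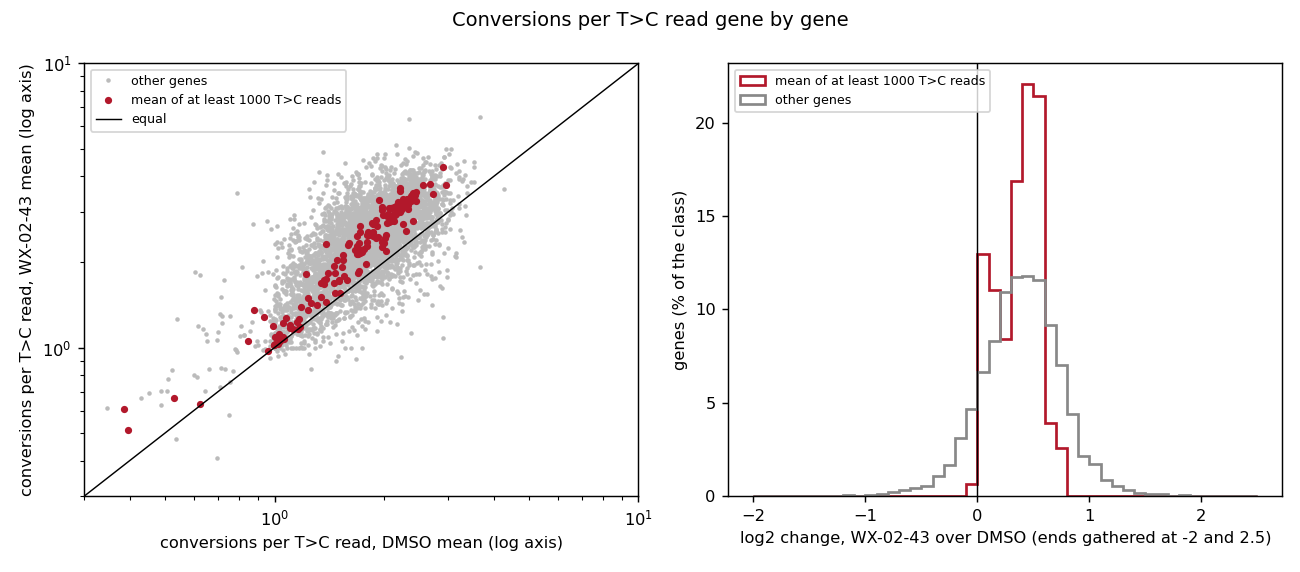
Left, mean conversions per T>C read of each of the 4643 genes in WX-02-43 (vertical) against DMSO (horizontal), log axes, with 5 genes outside the axes; right, the percent of genes in each class by log2 change. Most points lie above the line of equality, and 153 of the 154 genes with a mean of at least 1000 T>C reads have a change above 0.

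The genes with most T>C reads include some with a large difference and some with hardly any. ID2, which encodes an inhibitor of DNA binding by helix-loop-helix factors, had 3.21, 3.23 and 3.18 conversions per T>C read in WX-02-43, against 2.18, 2.27 and 2.26 in DMSO (log2 change 0.52, SE 0.13, limma adjusted p = 0.0548). The 3 WX-02-43 libraries of ID2 were close to each other and all above DMSO. Of the reads of ID2, 21% were multimapping. Its relative ID3 had 3.44, 3.46 and 3.40 in WX-02-43, against 2.33, 2.47 and 2.37 in DMSO (log2 change 0.52, adjusted p = 0.0501). TXNIP, a thioredoxin-binding protein that restrains glucose uptake, had 3.45, 3.54 and 3.37 in WX-02-43, against 2.36, 2.49 and 2.47 in DMSO (log2 change 0.50, adjusted p = 0.0534). RGS2, a regulator of G protein signalling, had 2.98, 3.07 and 2.98 in WX-02-43, against 2.10, 2.25 and 2.26 in DMSO (log2 change 0.45, adjusted p = 0.0771). None of these groups overlapped, yet in the fit on the mean ratio none passed the threshold after adjustment. With the trend on T>C reads, added later, ID2, ID3, TXNIP and RGS2 all passed it.

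CCND1, cyclin D1, had a smaller change, with 2.44, 2.33 and 2.30 in WX-02-43 and 1.93, 2.02 and 1.97 in DMSO, a log2 change of 0.26 (adjusted p = 0.232, limma). KPNB1, importin beta, had 1.84, 1.86 and 1.89 in WX-02-43, against 1.77, 1.56 and 1.78 in DMSO, and PEBP1, a phosphatidylethanolamine-binding protein that inhibits Raf, had 1.38, 1.36 and 1.32 in WX-02-43 and 1.24, 1.21 and 1.27 in DMSO. SRP14, a subunit of the signal recognition particle, had 1.08, 1.09 and 1.09 in WX-02-43 and 1.05, 1.05 and 1.04 in DMSO. The 95% interval of the log2 change was -0.17 to 0.27 for SRP14, so a change the size of the median gene lay outside it. FOXA1, a pioneer factor of luminal prostate cells, had 3.38, 3.46 and 3.17 in WX-02-43 and 2.32, 2.35 and 2.27 in DMSO (log2 change 0.53, adjusted p = 0.0515). With the limma trend on T>C reads, CCND1 (adjusted p = 6.1e-05), FOXA1 (4.1e-06), PEBP1 (0.0392) and KPNB1 (0.0459) also passed the threshold. SRP14 did not pass it with that trend (0.152).

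**Figure D3:**
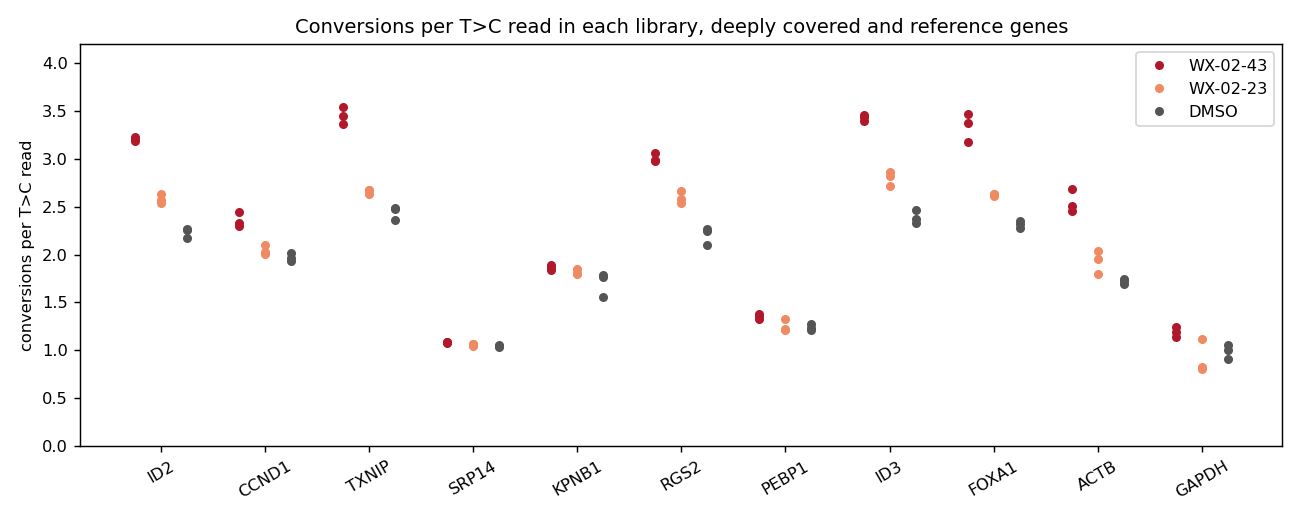
Conversions per T>C read in each library (points) for 8 of the 10 genes with most T>C reads and for FOXA1, ACTB and GAPDH, in WX-02-43, WX-02-23 and DMSO. In ID2, TXNIP, RGS2, ID3 and FOXA1 the WX-02-43 points lie near or above 3 and apart from DMSO, while SRP14 stays near 1 in all 3 groups.

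Of the 154 genes with at least 1000 T>C reads, 21 had a log2 change under 0.1. They included ribosomal protein genes (RPL34, RPS21, RPL27, RPL35A), LIG1 (DNA ligase), MIF (a cytokine) and RNASEK, and most of them stood close to 1 conversion per T>C read in both groups. LIG1 had a mean of 1.16 in both WX-02-43 and DMSO, and RNASEK had 1.07 in WX-02-43 and 1.04 in DMSO. The share of reads with T>C of several of these genes was about as high after PladB as in the other groups. For LIG1 it was 92.5% in WX-02-43, 89.8% in PladB and 89.2% in DMSO, and for SRP14 70.4% in WX-02-43, 74.1% in PladB and 70.3% in DMSO. Over all coding genes the share fell to between 5.31% and 5.66% in PladB libraries, against 8.98% to 9.83% in DMSO libraries. Whether T>C reads of these genes come from a source other than labelling was not tested.

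Among the 84 called genes, the highest changes were in genes with few T>C reads and the lowest of the positive ones in deeper genes. ID1 had 3.80, 3.66 and 3.78 conversions per T>C read in WX-02-43, against 2.62, 2.48 and 2.58 in DMSO (log2 change 0.55, limma adjusted p = 0.0465). HIST1H4C, a histone H4 gene, had 1.39, 1.32 and 1.36 in WX-02-43, against 0.883, 0.872 and 0.887 in DMSO (log2 change 0.62, adjusted p = 0.0413). YOD1, a deubiquitinase, had 3.36, 4.47 and 4.16 in WX-02-43, against 2.26, 2.65 and 2.73 in DMSO (log2 change 0.64, adjusted p = 0.0465). A value under 1, as in DMSO for HIST1H4C, means fewer conversions than T>C reads, which held in at least 1 library for 2220 of the 23086 coding intervals, and its cause was not tested. The 5 highest changes were in ACAT2 (log2 change 1.65), ZBED5 (1.64), HBS1L (1.51), KIF23 (1.49) and PPP1R12B (1.42), whose means over the 12 libraries were 56.1 to 110 T>C reads. MELK, a mitotic kinase and the 1 gene called lower (log2 change -1.40), had 66, 1 and 31 T>C reads in WX-02-43, against 123, 40 and 133 in DMSO. Without any 1 of the 6 WX-02-43 and DMSO libraries, ID1, HIST1H4C, YOD1, ACAT2, ZBED5, KIF23 and PPP1R12B each had an adjusted p of 0.0596 to 0.108. HBS1L (0.0794 to 0.101) lost its call without any library but WX-02-43 replicate 1, and MELK (0.0635 to 0.0837) without any but DMSO replicate 1.

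The size of the difference differed little with the depth of a gene and more with its share of reads with T>C and its conversions per T>C read. Genes were split into 5 bins by each property, of equal size except for exon number. Depth, share of reads with T>C and covered T positions were taken over all 12 libraries, those compared among them. The median log2 change was 0.38 in the bin with fewest T>C reads and 0.40 in the bin with most. It was 0.36 in the bin with the lowest share of reads with T>C and 0.48 in the bin with the highest, and each of the 3 WX-02-43 libraries had its highest median in that last bin. By covered T positions per read it was 0.34 in the lowest bin and 0.41 in the highest, and by interval length 0.34 in the shortest bin and 0.41 in the longest. Binned by conversions per T>C read in WX-02-23, a group outside the comparison, it was 0.22 in the lowest bin and 0.51 in the highest. Binned by the share of reads with T>C in PladB over that in DMSO, it was 0.43 where that ratio was lowest and 0.31 where it was highest, though DMSO enters both measures there. Genes whose transcripts have 1 exon had a median of 0.48 (121 genes), those with 2 to 3 exons 0.49 (520 genes) and those with 16 or more exons 0.36 (770 genes). These medians are descriptions with no test, and the groupings by WX-02-23, by PladB and by exon number were added after the data were seen.

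**Figure D4:**
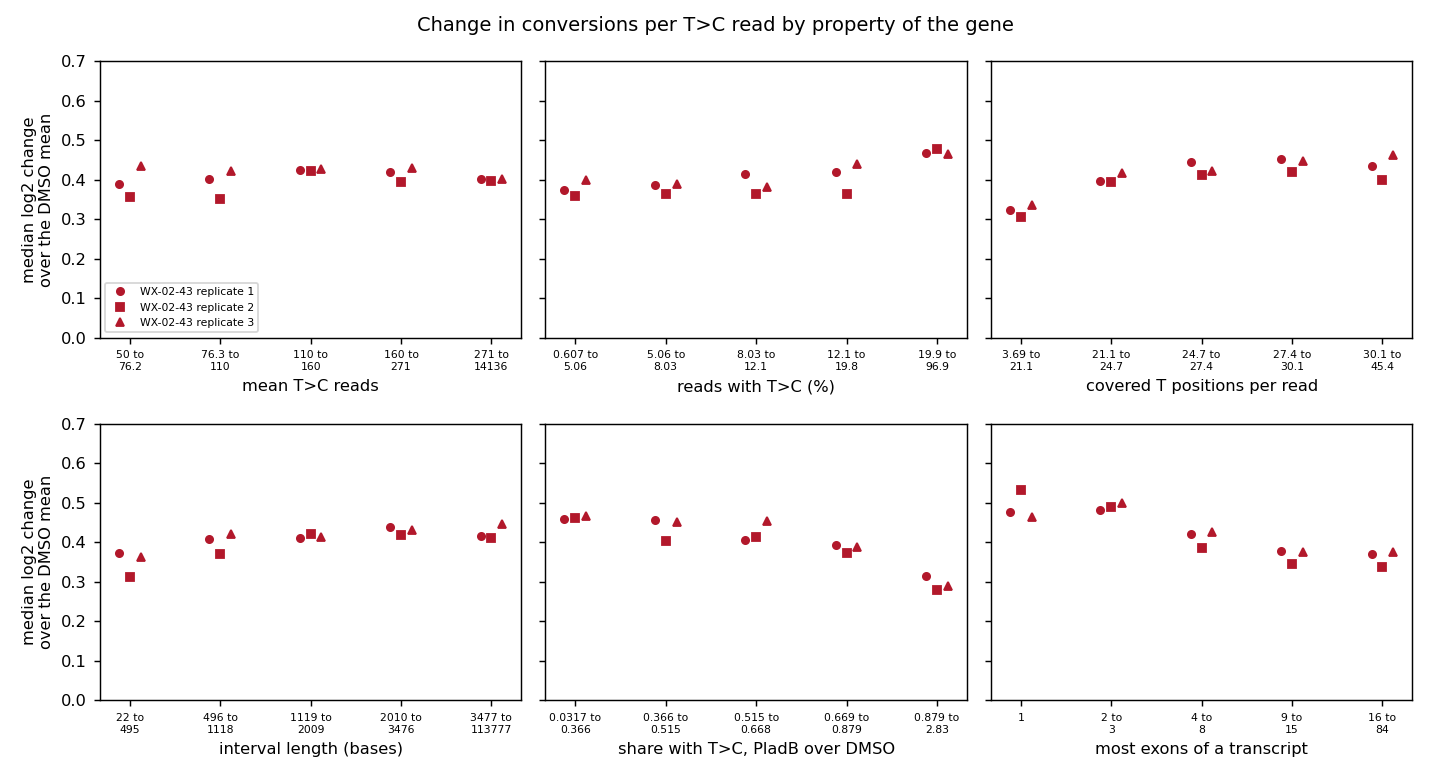
Median log2 change in conversions per T>C read of each WX-02-43 library over the DMSO mean, for genes in 5 bins of mean T>C reads, share of reads with T>C, covered T positions per read, interval length, share with T>C in PladB over DMSO, and exon number (bin limits on the axis). All medians are above 0, and the bin with the highest share in PladB over DMSO is lowest of its 5 in each library.

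Medians of the gene groups in this measure ran from 0.25 to 0.53, and differences between groups were not tested. The median log2 change in conversions per T>C read was 0.48 for 22 tested genes of the integrated stress response, 0.44 for 18 heat shock genes, 0.47 for 20 NRF2 targets and 0.52 for 15 unfolded protein response genes, beside 0.40 over all genes tested. Among splicing genes it was 0.48 for 19 SF3b, SF3a and U2 factors and 0.48 for 36 SR and hnRNP genes. The highest medians were those of the tubulins (0.53, 10 genes) and of the ID and BMP feedback genes (0.52, 10 genes). The lowest were those of mitochondrial complex I (0.25, 27 genes) and of the cell cycle genes (0.30, 29 genes), and cytosolic ribosomal proteins had 0.34 (80 genes, of which 72 were positive). The genes called in these lists were all higher in WX-02-43 and included HSP90AA1, CEBPB, DNAJC3, SMAD7, SF3A3, HNRNPF and RPS6.

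After each library was centred on its median gene, limma called 1 of 4643 genes (0.0215%), MELK, which was lower, and 423 had an unadjusted p under 0.05. The trend on T>C reads called 5, all lower. So few calls do not show that the other genes shared 1 shift. Among the 1426 genes with a mean of at least 200 T>C reads, 78 were called, of which 76 were lower than the common shift. In the centred fit to all 4643 genes, no gene was called without DMSO replicate 2, DMSO replicate 3 or any 1 WX-02-43 library. The fit to the 1426 genes was not repeated without single libraries. The share of reads with T>C per gene gave 0 calls of 4643 in limma (0%), with 234 genes at an unadjusted p under 0.05 and 3 calls with the trend on T>C reads, and the groups did not overlap in 238 genes with WX-02-43 higher (5.13%) and 357 with it lower (7.69%). With no difference, 3 against 3 libraries would separate in 1 direction or the other with a chance of 0.1. ID1 and RGS2 were among the 3 genes called in the share with the trend on T>C reads. The share for ID1 was 83.1%, 81.9% and 82.0% in WX-02-43, against 71.7%, 72.5% and 72.6% in DMSO. For RGS2 it was 54.9%, 53.8% and 54.2% in WX-02-43, against 63.2%, 63.9% and 63.8% in DMSO.

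In newly made RNA, few genes passed the test for a change relative to the typical gene, and a gene that was not called is not shown to be unchanged. Levels are relative to the library, and in bulk samples fewer cells of a kind and less RNA per cell cannot be told apart. Of 10722 genes tested on T>C reads with edgeR, 10 were called (0.0933%), of which 5 rose and 5 fell (0.0466% each way), and 409 had an unadjusted p under 0.05. In total RNA, 22 of 13179 genes were called (0.167%), of which 13 rose (0.0986%) and 9 fell (0.0683%), and 772 had an unadjusted p under 0.05. Groups that did not overlap were far commoner than calls. With no difference, such separation of 3 against 3 libraries has a chance of 0.1, both directions together. All 3 WX-02-43 libraries were above all 3 DMSO libraries in 704 genes in T>C reads (6.57%) and 825 in all reads (6.26%), and below them in 575 (5.36%) and 750 (5.69%). Of these calls 6 were shared, all in the same direction, which is 6 of the 10 T>C calls and 6 of the 22 all-read calls, and they included GDF15, SESN2, JUN, ZNF503 and ID3. Genes on the lists of the electrophile, heat shock and integrated stress responses were among those that rose. As background, these responses work through separate factors. NRF2 drives antioxidant genes such as TXNRD1 and OSGIN1, HSF1 drives chaperones such as HSPA1A, and ATF4 drives CHAC1 and SESN2. Levels below are counts scaled to CPM, separately for T>C reads and for all reads of coding genes.

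Among NRF2 targets, TXNRD1 (thioredoxin reductase; interval on chromosome 12, 104742200 to 104744085 in hg19, 3′ end) had 669, 727 and 596 CPM of T>C reads in WX-02-43, against 207, 229 and 292 CPM in DMSO. The groups did not overlap, and the log2 change was 1.45 (SE 0.23, edgeR adjusted p = 0.000558). In all reads TXNRD1 had 210, 224 and 197 CPM in WX-02-43, against 156, 131 and 161 CPM in DMSO, a log2 change of 0.49 that did not pass the threshold (adjusted p = 0.0506), though it did without DMSO replicate 3 (0.0472). OSGIN1, an oxidative stress response gene (chromosome 16, 83999613 to 83999937), had 39.4, 62.5 and 42.8 CPM of T>C reads in WX-02-43 and no T>C read in any DMSO library, at least 25.4-fold higher against a floor of 3 counts per library (adjusted p = 0.000973). In all reads OSGIN1 was not called, though it was without DMSO replicate 3 (log2 change 3.21, edgeR adjusted p = 0.0058). HMOX1, heme oxygenase, rose in all reads, with 5.88, 11.2 and 6.01 CPM in WX-02-43, against 1.74, 0.769 and 0.0596 CPM in DMSO (log2 change 3.15, SE 0.57, adjusted p = 0.00245). These are low levels, and although the HMOX1 groups did not overlap, a fit to the 6 libraries alone gave an adjusted p of 0.285. Without DMSO replicate 1, the highest of its group, the log2 change of HMOX1 was 4.21. In T>C reads HMOX1 was not called (log2 change 2.84, edgeR adjusted p = 0.856). SLC7A11, the cystine transporter, had 182, 178 and 178 CPM of all reads in WX-02-43, against 125, 129 and 104 CPM in DMSO (log2 change 0.59, adjusted p = 0.0379). Of the 36 genes on the NRF2 list, 30 were tested in T>C reads, of which 2 rose, 0 fell and 23 had a positive change, with a median log2 change of 0.47 beside 0.00 over all genes tested. In all reads 2 of 34 rose and 0 fell, with a median of 0.16. Over all genes tested, 0.0466% rose in T>C reads and 0.0986% in all reads. SLC7A11 lost its call, at an adjusted p of 0.0613 to 0.244, without any 1 library other than DMSO replicate 2.

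Of 28 genes on the heat shock list, HSPA1A, HSPA1B and HSPH1 rose in total RNA and 25 were not called. HSPA1A, an inducible HSP70, had 719, 687 and 845 CPM of all reads in WX-02-43, against 181, 250 and 222 CPM in DMSO (log2 change 1.79, SE 0.12, edgeR adjusted p = 2.01e-13). Its near-identical neighbour HSPA1B had 872, 894 and 935 CPM in WX-02-43, against 447, 425 and 466 CPM in DMSO (log2 change 1.01, SE 0.08, adjusted p = 3.45e-11). Of the reads on their intervals 0.217% were multimapping in HSPA1A and 0.216% in HSPA1B, but how reads were divided between such close copies is not known, so the split between these genes is uncertain. HSPH1, an HSP110 chaperone, had 178, 197 and 194 CPM in WX-02-43, against 126, 94.0 and 134 CPM in DMSO (log2 change 0.69, adjusted p = 0.00685). In each of these 3 genes all WX-02-43 libraries were above all DMSO libraries. In T>C reads neither gene of the HSP70 pair passed the threshold, although HSPA1B had 654, 720 and 670 CPM in WX-02-43, against 371, 372 and 400 CPM in DMSO (log2 change 0.84, adjusted p = 0.11). On that list 0 genes fell in all reads, 25 of the 28 changes were positive, and the median log2 change was 0.22 beside 0.00 over all genes tested. In T>C reads 0 of 27 were called, with a median of 0.36. The share of all genes tested that rose was 0.0986% in all reads and 0.0466% in T>C reads. HSPH1 lost its call without DMSO replicate 2 or WX-02-43 replicate 2 or 3 (adjusted p 0.0635 to 0.114).

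Of 26 genes on the list of the integrated stress response, GDF15, SESN2, CHAC1 and SLC7A11, the last also on the NRF2 list, rose in total RNA and 22 were not called. GDF15, a secreted stress cytokine (chromosome 19, 18499746 to 18499987), had 2079, 1798 and 1772 CPM of T>C reads in WX-02-43, against 782, 784 and 730 CPM in DMSO (log2 change 1.30, SE 0.14, edgeR adjusted p = 1.73e-07). In all reads GDF15 had 843, 723 and 806 CPM in WX-02-43, against 365, 392 and 407 CPM in DMSO (log2 change 1.03, adjusted p = 6.33e-11). SESN2, a sestrin that restrains mTORC1, had 909, 954 and 893 CPM of T>C reads in WX-02-43, against 229, 400 and 451 CPM in DMSO (log2 change 1.35, SE 0.24, adjusted p = 0.00196). DMSO replicate 1 was the lowest for SESN2, and without it the log2 change was 1.11 (adjusted p = 0.0506). CHAC1, which degrades glutathione, had 94.3, 79.2 and 73.9 CPM of all reads in WX-02-43, against 28.1, 49.1 and 38.0 CPM in DMSO (log2 change 1.10, SE 0.20, adjusted p = 0.0022). On that list 0 genes fell in all reads, with a median log2 change of 0.24, and 2 of 26 rose and 0 fell in T>C reads, with a median of 0.29. Among all genes tested, 0.0986% rose in all reads and 0.0466% in T>C reads. Of 18 unfolded protein response genes, 17 were tested and 0 were called in either measure, and the medians were -0.01 in T>C reads and -0.05 in all reads.

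JUN, a subunit of AP-1 (chromosome 1, 59246463 to 59247746), had 1953, 2004 and 2181 CPM of T>C reads in WX-02-43, against 976, 1182 and 1095 CPM in DMSO (log2 change 0.92, SE 0.13, edgeR adjusted p = 4.38e-05). In all reads JUN had 237, 218 and 252 CPM in WX-02-43, against 136, 141 and 151 CPM in DMSO (log2 change 0.72, adjusted p = 0.000149). Of 39 immediate early genes 38 were tested in all reads, of which JUN rose and IER2 fell, and the median log2 change was -0.12. Beside these, 0.0986% of all genes tested rose and 0.0683% fell. Other genes that rose in all reads were CYP1A1 (log2 change 0.88, adjusted p = 0.00227) and CYP1B1 (1.11, adjusted p = 0.0215), cytochromes P450 induced by aryl hydrocarbon receptor ligands. SLITRK6, a neuronal membrane protein (0.78, adjusted p = 0.0316), and TTC17 (0.72, adjusted p = 0.0229) rose as well. CYP1A1 lost its call without WX-02-43 replicate 2 (adjusted p = 0.0666). CYP1B1 lost it without replicate 1 or 2 of either group (0.0613 to 0.272), SLITRK6 without any library but DMSO replicate 3 (0.0731 to 0.338), and TTC17 without any but DMSO replicate 1 (0.0635 to 0.334). In T>C reads CYP1A1, CYP1B1, SLITRK6 and TTC17 were not called, with log2 changes of 1.17, -0.08, 0.97 and 0.96.

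The promoters of called genes were searched in RefSeq windows of 300 bases (250 before and 50 after the start site, GRCh38.p14) for 8 patterns on both strands. These were the heat shock element GAANNTTC, the antioxidant response element TGACNNNGC, the C/EBP-ATF response element TGATGNAA, the xenobiotic response element GCGTG, the cyclic AMP response element TGACGTCA, the AP-1 site TGANTCA, the TATA box TATAAA and GGCGCC. Of the 26 genes called in either measure, 22 had a window. GAANNTTC was in 6 of them, HSPA1A, HSPA1B, JUN and CYP1A1, which rose, and ID1 and TUBB, which fell, and in 8.21% of all 27305 genes with a window. A gene counts where any of its windows holds the pattern. TGACNNNGC was in 2 (16.1% of all genes), TGATGNAA in 2 (4.46%), GCGTG in 16 (40.6%), TGACGTCA in 0 (2.25%), TGANTCA in 2 (9.37%), TATAAA in 6 (14.0%) and GGCGCC in 4 (22.0%). The stretches of 30 bases below hold the match in capitals. They were chosen after the search because a gene named above held the pattern tied to its stress response, so they are a description and no evidence of binding. HSPA1B is shown for the heat shock element (chr6:31827622-31827651, plus strand), TXNRD1 for 2 matches to the antioxidant response element in the first of its 2 windows (chr12:104215670-104215699 and chr12:104215761-104215790, plus strand), and CHAC1 for the C/EBP-ATF response element (chr15:40953251-40953280, plus strand).
HSPA1B: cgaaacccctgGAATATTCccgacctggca
TXNRD1: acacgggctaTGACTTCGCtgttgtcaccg
TXNRD1: gcgtccttcgGCTCCGTCAgttcccacagg
CHAC1: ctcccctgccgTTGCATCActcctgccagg
The second TXNRD1 match and that of CHAC1 are on the opposite strand to the one printed.

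Among the genes that fell, ZNF503, a zinc finger protein (chromosome 10, 77157588 to 77158506), had 3143, 3090 and 3193 CPM of T>C reads in WX-02-43, against 5524, 5471 and 4791 CPM in DMSO (log2 change -0.74, SE 0.09, edgeR adjusted p = 3.74e-06). In all reads ZNF503 had 417, 405 and 441 CPM in WX-02-43, against 834, 838 and 721 CPM in DMSO (log2 change -0.92, adjusted p = 1.37e-09). RGS2 had 4341, 4269 and 4626 CPM of T>C reads in WX-02-43, against 5856, 6420 and 5942 CPM in DMSO (log2 change -0.46, SE 0.08, adjusted p = 0.000973). TUBB, a beta-tubulin, had 917, 926 and 960 CPM of T>C reads in WX-02-43, against 1371, 2079 and 1210 CPM in DMSO (log2 change -0.73, adjusted p = 0.0338). DMSO replicate 2 was the highest for TUBB, and its call was lost without DMSO replicate 2 or any 1 of the WX-02-43 libraries (0.111 to 0.93). Of its reads 21% were multimapping. In all reads PPP1R10, a regulatory subunit of protein phosphatase 1, had 9.96, 20.6 and 19.8 CPM in WX-02-43, against 36.1, 57.0 and 42.6 CPM in DMSO (log2 change -1.43, adjusted p = 0.00786), and lost its call without DMSO replicate 2 or WX-02-43 replicate 1 (0.148 to 0.19). GATA2, a transcription factor, fell by 0.44 on the log2 scale (adjusted p = 0.0379), PFN1, profilin, by 0.45 (adjusted p = 0.0379) and IER2 by 0.51 (adjusted p = 0.0176), of whose reads 65% were multimapping. GATA2 lost its call without any library but DMSO replicate 3 (0.103 to 0.287), IER2 without any but DMSO replicate 1 or 3 (0.0705 to 0.117), and PFN1 without DMSO replicate 2 or WX-02-43 replicate 1 or 2 (0.0767 to 0.495).

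ID1, ID2 and ID3, targets of BMP signalling, fell in total RNA. ID1 had 430, 427 and 410 CPM of all reads in WX-02-43, against 603, 552 and 634 CPM in DMSO (log2 change -0.50, SE 0.09, edgeR adjusted p = 0.00227). ID2 had 1264, 1226 and 1425 CPM in WX-02-43, against 1967, 1913 and 2016 CPM in DMSO (log2 change -0.59, adjusted p = 1.39e-06), and ID3 had 705, 765 and 731 CPM in WX-02-43, against 979, 1000 and 1055 CPM in DMSO (log2 change -0.46, adjusted p = 0.000771). Of the reads of ID2, 21% were multimapping. All 3 genes had groups that did not overlap. Their relative ID4 had 154, 192 and 161 CPM in WX-02-43, against 232, 220 and 239 CPM in DMSO, and was not called (log2 change -0.45, adjusted p = 0.173). In T>C reads only ID3 was called, with 4633, 4991 and 4800 CPM in WX-02-43, against 6002, 6404 and 6696 CPM in DMSO (log2 change -0.41, adjusted p = 0.0233), and its call was lost without any library but DMSO replicate 1 (0.0563 to 0.277). ID2 had a log2 change of -0.32 in T>C reads (adjusted p = 0.165) and passed without WX-02-43 replicate 3 (0.0364). Whether the change differs between T>C reads and all reads was not tested. Of 14 genes on the list of ID and BMP feedback genes, 13 were tested in all reads, of which 3 fell and 0 rose, and the median log2 change was -0.27. Luminal transcription factor genes had a median log2 change of -0.29 in T>C reads (22 tested, 2 fell, 0 rose) and of -0.21 in all reads (23 tested, 3 fell, 0 rose), beside 0.00 over all genes tested in each. For both lists, the share of all genes tested that fell was 0.0683% in all reads and 0.0466% in T>C reads. The summed luminal markers given above were also lower in WX-02-43 libraries, and their part in these values was not tested.

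**Figure D5:**
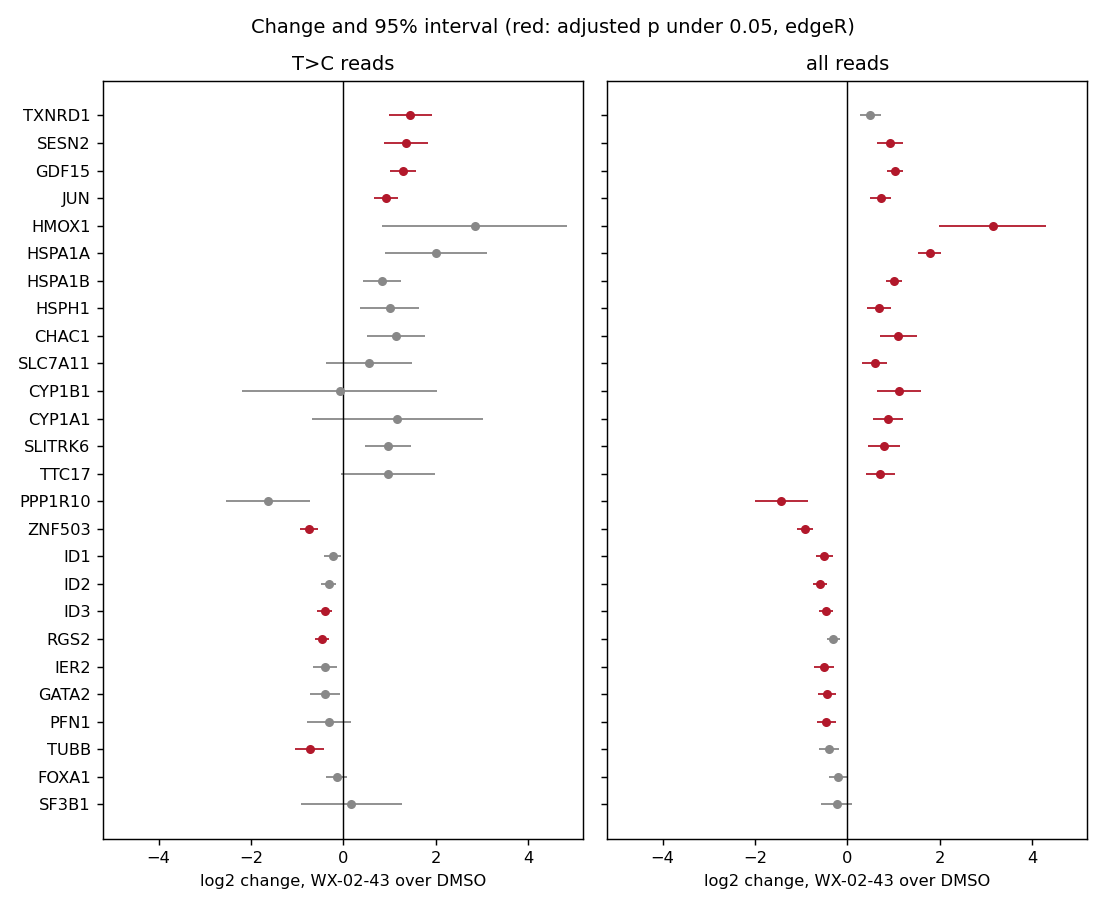
Log2 change with its 95% interval (edgeR) of 26 genes in T>C reads (left) and all reads (right), WX-02-43 over DMSO; red marks an adjusted p under 0.05. OSGIN1 is left out, since it had no T>C read in DMSO. GDF15, SESN2, JUN, ZNF503 and ID3 are called in both measures, and FOXA1 and SF3B1 in neither.

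FOXA1 and SF3B1 were not called in either measure. FOXA1 had 2373, 2475 and 2339 CPM of T>C reads in WX-02-43, against 2332, 2924 and 2713 CPM in DMSO, and the log2 change of -0.15 had a 95% interval of -0.38 to 0.08. SF3B1 itself had 51.0, 62.9 and 52.8 CPM of all reads in WX-02-43, against 62.0, 65.9 and 67.4 CPM in DMSO (log2 change -0.23, interval -0.56 to 0.10). ACTB and GAPDH had log2 changes of -0.15 and -0.10 in all reads (intervals -0.30 to 0.00 and -0.24 to 0.04). Of the reads of ACTB, 36% were multimapping. No gene was called among 22 SF3b, SF3a and U2 factors, 38 SR and hnRNP genes, 36 ribosome biogenesis genes or the tested ribosomal protein, p53 target, cell cycle, proteasome and complex I genes, in T>C reads or in all reads. The medians of the cell cycle genes (-0.31) and of the SR and hnRNP genes (-0.22) in T>C reads were below the 0.00 of all genes tested.

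WX-02-43 and WX-02-23 differed in new RNA at 5 of 10722 genes (0.0466%, edgeR), 1 higher (0.00933%) and 4 lower (0.0373%) in WX-02-43, at the same dose and time. PDK4, a kinase that inhibits pyruvate dehydrogenase, had 839, 854 and 601 CPM of T>C reads in WX-02-43, against 1731, 1886 and 2195 CPM in WX-02-23 (log2 change -1.34, SE 0.18, adjusted p = 3.22e-05), and its DMSO libraries had 471, 768 and 626 CPM. TXNRD1 had 669, 727 and 596 CPM in WX-02-43, against 1355, 1538 and 1521 CPM in WX-02-23 (log2 change -1.15, adjusted p = 0.0242), and RGS2 (-0.39, adjusted p = 0.0242) and ID3 (-0.45, adjusted p = 0.0117) were also lower in WX-02-43. PMEPA1, a regulator of TGF-beta signalling, had 1369, 1167 and 1090 CPM in WX-02-43, against 622, 678 and 592 CPM in WX-02-23 (log2 change 0.94, adjusted p = 0.00322), with 1195, 1109 and 1152 CPM in DMSO. Of these, PDK4 was called in each of the 6 fits without 1 library. TXNRD1 (0.0652 to 0.241) and RGS2 (0.0725 to 0.439) lost their calls without any 1 of the 6 libraries of the 2 compounds. ID3 lost its call without any but WX-02-23 replicate 1 (0.0539 to 0.218), and PMEPA1 without WX-02-23 replicate 3 or WX-02-43 replicate 1 (0.0517 to 0.153).

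In total RNA 20 of 13179 genes differed between WX-02-43 and WX-02-23 (0.152%), 4 higher (0.0304%) and 16 lower (0.121%) in WX-02-43, and all 5 genes called in T>C reads were among them. Lowest in WX-02-43 was again PDK4 (log2 change -1.48), then F3, tissue factor (-1.11), ERRFI1, a feedback inhibitor of EGFR (-1.07), IRS1, an insulin receptor substrate (-0.75), and TXNRD1 (-0.69). The 4 higher genes were ZNF543 (2.57), RBM47, an RNA-binding protein (0.74), TFAP2A, a transcription factor (0.56), and PMEPA1 (0.55). ZNF543 was at low levels, with 12.2, 4.90 and 5.77 CPM of all reads in WX-02-43, against 1.17, 0.844 and 1.82 CPM in WX-02-23. Fits without 1 library kept PDK4, TXNRD1 and PMEPA1, and also kept HSPA1B, ID3 and AMD1. The calls of IRS1 (0.0572 to 0.244) were lost without any 1 of the 6 libraries, those of ERRFI1 (0.0743 to 0.286) without any but WX-02-43 replicate 1, and those of F3 (0.103 to 0.321) and ZNF543 (0.0697 to 0.41) without any but WX-02-43 replicate 2. RBM47 (0.0606 to 0.076) lost its call without WX-02-23 replicate 3 or WX-02-43 replicate 1, and TFAP2A (0.185 to 0.279) without WX-02-23 replicate 2 or 3 or WX-02-43 replicate 1 or 3. In conversions per T>C read, the median gene was higher in WX-02-43 than in WX-02-23 by 0.27 on the log2 scale, 80.9% of 4643 genes had a positive change, and 1065 (22.9%) had all 3 WX-02-43 libraries above all 3 WX-02-23 libraries, against 42 (0.905%) with all 3 below. limma called 0 of these genes (0%), with 841 at an unadjusted p under 0.05, while edgeR with T>C reads as offset called 112 and the trend on T>C reads 83, all higher in WX-02-43. The comparisons of WX-02-43 with DMSO and with WX-02-23 share the WX-02-43 libraries.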

How the data were processed

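Members, gene lists and tests were chosen with earlier results of these data known. Per the file headers, slamdunk 0.4.3 counted mapped and filtered reads over 3′ UTR intervals; the genome build is given as hg19 in the submitters' processing notes. The deposited files hold, per interval, counts of reads, T>C reads, multimapping reads, covered T positions and conversions, and a CPM that per the file headers was made by the authors. No molecular identifiers are named in the labels, so floors cover counting error only, and replicate variance in T>C reads exceeded the mean 16.6 times in the median gene. The deposited conversion rate is a fraction, converted over covered T positions, and served as a check.

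Of 29255 intervals, 23086 coding ones were used. Of overlapping intervals of a gene only the one with most reads counted, and separate ones were summed. Of 45 names turned into dates, 44 were restored; 24 chromosome Y copies of pseudoautosomal intervals were dropped.

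Read and T>C read counts went into edgeR 4.0.16 under R 4.3.3 (quasi-likelihood, TMM, filterByExpr, all 12 libraries). The log2 of conversions over T>C reads, and of (T>C reads + 0.5) over (other reads + 0.5), were tested with limma 3.58.1 (eBayes with trend) on genes with a mean of at least 50 T>C reads and at least 1 T>C read and, added later, 1 conversion in each library. A variance trend on T>C reads was chosen after the call counts had been seen and is an added alternative. Adjustment was Benjamini-Hochberg, and adjusted p under 0.05 is a call. DESeq2 1.42.0 was an alternative, and scipy 1.17.1 gave the exact tests. Scripts were checked on simulated data.

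Genes were named by rule: every gene called in T>C reads, the most changed in the other measures, the 10 with most T>C reads, and a short fixed list. Genes on chromosome 8, and a few others under the rule, enter all tests and counts but are not reported here. TTC17, HSPH1 and SLC7A11, called in all reads outside that rule, AMD1, the genes listed for a change under 0.1, the list members named in conversions, ID4 in all reads, and ID1 and RGS2 in the share, were chosen after their values were seen.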

Additional observations from a re-analysis of the deposited data

Results flagged for a closer look

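Noncoding intervals, which entered none of the gene tests, also held more conversions per T>C read after WX-02-43. The value was 2.85, 2.94 and 2.92 in WX-02-43 replicates 1, 2 and 3, against 2.58, 2.45 and 2.61 in DMSO replicates 1, 2 and 3, a difference of 0.356 (exact two-sided permutation p = 0.1, the smallest that 3 against 3 allows, adjusted 0.143 over 10 comparisons). It stood out because it is a signal above the control level in data outside the main measurement. WX-02-23 libraries had 2.53, 2.64 and 2.56.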

How the results depend on the processing

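Counts of called genes moved with the tool, the filter and the libraries used. In conversions per T>C read against DMSO (84 calls), 605 genes were called by edgeR with T>C reads as offset, 579 at a mean of at least 200 T>C reads, 40 at a mean of at least 20, 517 with the added trend on T>C reads, 0 with 6 libraries in the fit and 0 to 8 without 1 library. After centring (1 call) these counts were 78 at 200 reads, 0 at 20 reads, 5 with the added trend, 0 with 6 libraries and 0 to 1 without 1 library, and the added trend gave 3 in the share. Against WX-02-23 (0 calls) edgeR gave 112, the added trend 83 and fits without 1 library 0 to 2. DESeq2 called 46 genes in T>C reads and 40 in all reads against DMSO, and 23 and 35 against WX-02-23. Without the filter on low counts 16 and 36 were called against DMSO, and plain sums over intervals gave 2 and 12 against WX-02-23. Leaving out 1 library gave 8 to 14 calls in T>C reads and 13 to 29 in all reads against DMSO, and 1 to 3 and 7 to 11 against WX-02-23. The library difference in conversions was 0.529 with noncoding intervals added. Over all the alternatives tried, the log2 change of SF3B1 in T>C reads ran from -0.062 (no WX-02-43 replicate 2) to 0.367. It was also negative when DMSO replicate 3 was omitted (-0.00987). For ACTB the log2 change in T>C reads ran from -0.0228 (no DMSO replicate 1) to 0.348. With 6 libraries in the fit TUBB lost its call in T>C reads (0.164) and CYP1B1, TTC17, SLC7A11, IER2, PFN1 and GATA2 lost theirs in all reads (0.0588 to 0.251). The causes were not tested.

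The replicate numbers did not pair the samples: same-numbered WX-02-43 and DMSO libraries had deviations correlated at 0.008, -0.013 and 0.013 in T>C reads and -0.120, -0.181 and -0.014 in all reads. For WX-02-43 and WX-02-23 these were 0.046, 0.025 and -0.002 in T>C reads and 0.225, 0.129 and 0.009 in all reads, where replicates 1 and 2 of WX-02-43 correlated best with their own number and replicate 3 did not. With a replicate block 14 genes were called in T>C reads, 24 in all reads, 0 in conversions per T>C read, 1 after centring and 0 in the share, and against WX-02-23 5, 20 and 0.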
